A study of Gallus gallus with 6 samples.

Results

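Collagens, laminins, integrins and the matrix glycoproteins fibronectin (FN1), SPARC, nidogen 1 (NID1) and nidogen 2 (NID2) were examined in the largest preovulatory follicle and in the ovulated oocyte of the hen. A gene was taken when its probe sets carried a single symbol of these families in the array annotation, and it was represented by its probe set with the highest mean over all arrays. These rules gave 72 of the 13009 genes with a single symbol, namely 41 collagen chains, 11 laminin chains, 16 integrin chains and 4 glycoproteins, which together held 195 of the 38439 probe sets tested.

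The study hybridized RNA to 6 Affymetrix GeneChip Chicken Genome arrays, 2 for each of 3 groups, from untreated ISA Brown laying hens aged 60 weeks. F1 GCs were granulosa cells dissected from around the germinal disc of the F1 follicle, the largest follicle before ovulation. Ov GDR was the germinal disc region of oocytes that had just been ovulated, described by the study as free of granulosa cells. F1 GDR was the germinal disc region of F1 follicles, whose overlying granulosa cells could not be fully removed and were not counted. Each array carried tissue pooled from 25 hens, so that spread between hens was not measured, and the 2 arrays of a group were biological replicates that the labels tell apart by a suffix A. For each group the value of the array without the suffix is given before that of the array A.

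Collagen IV chains and laminins build the networks of basement membranes, which nidogens link and on which fibronectin and SPARC are deposited or bound. Fibrillar collagens form the fibres of stromal tissue, and integrins are paired alpha and beta chains by which cells hold on to these proteins. The granulosa layer of a hen follicle is an epithelium that rests on a basal lamina, beyond which lie the theca cells, and on its other side it faces the coat of the oocyte.

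Values are log2 values normalized by gcrma. The background of an array was set at the highest of 23 control probe sets for foreign sequences and was 2.76 and 2.78 in F1 GCs, against 3.27 and 3.01 in Ov GDR and 2.82 and 2.88 in F1 GDR. Of the 72 genes 46 and 45 were above background in F1 GCs, against 27 and 28 in Ov GDR and 43 and 42 in F1 GDR. In all, 55 genes were above background in at least 1 group and 17 were not. Of all 13009 genes 9932 were above background in at least 1 group. Over all probe sets the shares above background were 51.4% and 51.3% in F1 GCs and 36.6% and 44.0% in Ov GDR. In F1 GDR they were 48.9% and 46.9%. The share was thus lower in Ov GDR over all probe sets as well. The 72 genes are each counted by their brightest probe set, so the size of their drop cannot be set against these shares. The SD of the difference between the 2 arrays over all probe sets was 0.296 in F1 GCs, 0.822 in Ov GDR and 0.432 in F1 GDR. The log2 gap between the 3' and 5' probe sets of actin, a sign of RNA integrity, was 3.23 and 2.46 in F1 GCs, compared with 5.02 and 1.53 in Ov GDR and 2.65 and 3.57 in F1 GDR. For GAPDH it was 0.91 and 0.54 in F1 GCs, against 2.82 and 0.11 in Ov GDR and 0.79 and 1.77 in F1 GDR. For EF1A it was 1.31 and 1.09 in F1 GCs, against 4.51 and 1.48 in Ov GDR and 1.85 and 3.1 in F1 GDR. The Ov GDR array without suffix had the largest gap each time. The study reports that ribosomal RNA seemed degraded after ovulation, while mRNA was almost unaffected. The part of RNA integrity in the differences was not tested.

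Fibronectin, both nidogens, SPARC, 4 of the collagen IV chains, 2 fibrillar collagen chains, 2 laminin chains and 3 integrin chains were overexpressed in F1 GCs against Ov GDR. With limma and a Benjamini-Hochberg adjusted p under 0.05, 15 of the 72 genes (20.8%) were higher in F1 GCs relative to Ov GDR and 3 were lower. Over the brightest probe sets of all 13009 genes, 12.2% were called higher and 10.1% lower, and over all probe sets 8.54% and 6.51%. These shares depend on the scaling: with the arrays set to equal means of ACTB, GAPDH and EEF1A1, 9.42% of the 13009 genes were called higher and 14.8% lower, and 14 of the 15 genes (not LAMB2) but none of the 3 lower ones were kept. That scaling mainly moved the Ov GDR array that has no suffix. Its mean of these 3 genes lay at -0.72 from the mean of all arrays on the log2 scale, and those of the other arrays at 0.11 to 0.19. The median log2 difference over the 72 genes was -0.05, against -0.08 over the 13009 genes, so the overexpressed genes were a minority beside many that differed little. All 15 differences exceeded 1 on the log2 scale, whereas none of the 3 lower genes differed by as much as 1. In these bulk samples fewer cells of a type and less RNA per cell cannot be told apart. Of 9 granulosa markers 6 were higher in F1 GCs relative to Ov GDR. FOXL2 was lower (log2 difference -0.93, SE 0.17, adjusted p = 0.0299), while AMH (-1.45, adjusted p = 0.234) and FSHR (-0.37, adjusted p = 0.317) were not called. The summed linear level of the 9 markers was 20712 and 21367 in F1 GCs, against 4597 and 3893 in Ov GDR and 11233 and 8165 in F1 GDR, with 6 of the 9 above background on each Ov GDR array. FOXL2 made up most of the Ov GDR sums, and the other 8 markers summed to 18664 and 19499 in F1 GCs, compared with 458 and 536 in Ov GDR and 8148 and 5747 in F1 GDR. The part of these markers in the differences was not tested. Without the F1 GCs array that has no suffix 8 genes were called higher, 7 of them among the 15, and without the F1 GCs array A 7 were, all among the 15. COL24A1, COL4A4, COL4A6, FN1, ITGA2, ITGAV and SPARC were called whichever of the 6 arrays was left out, and the other 8 were lost without at least 1 of them. The 3 lower genes were lost without either F1 GCs array, and more genes were called lower without either Ov GDR array. The shares of the 13009 genes called with an array left out were not taken, so such counts cannot be set against them.

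**Figure D1:**
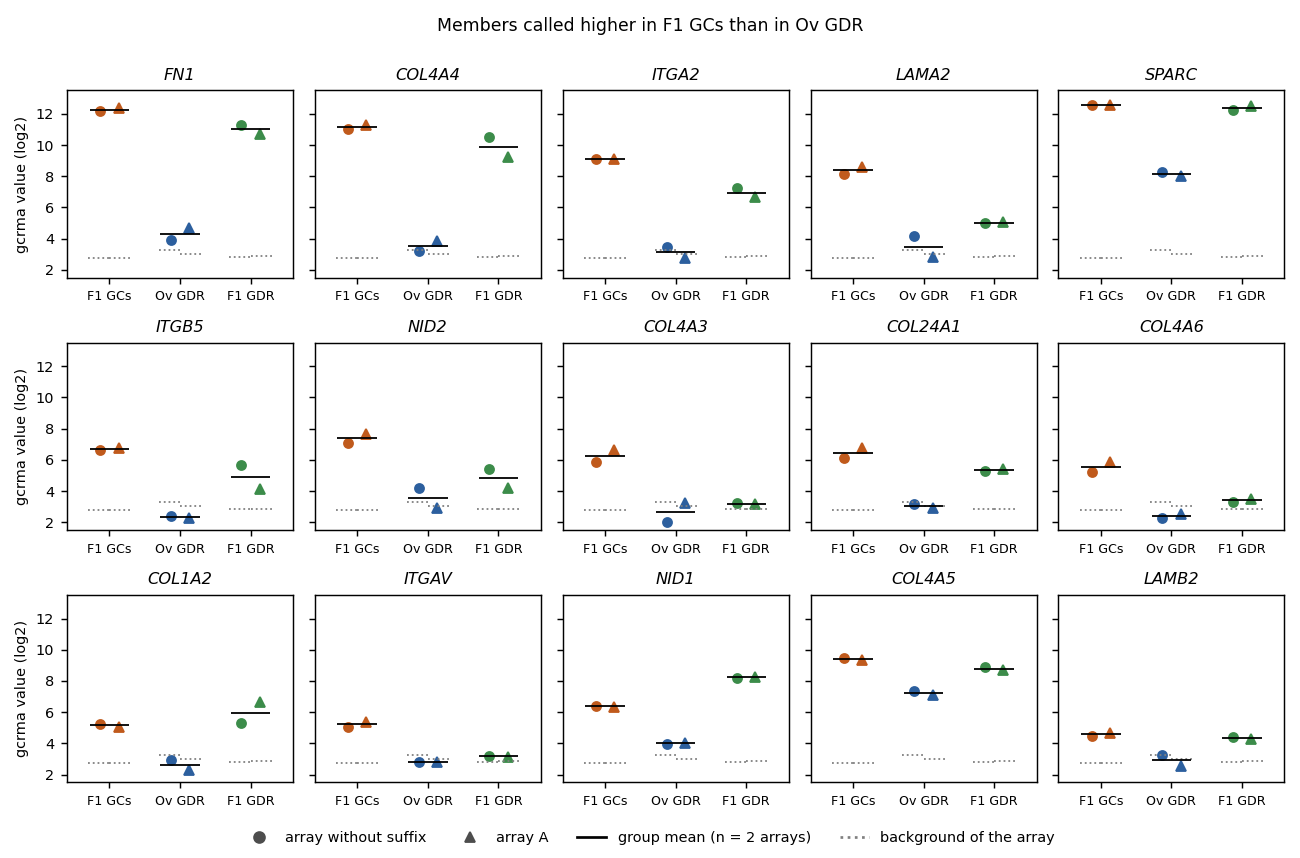
gcrma value (log2) of the 15 genes called higher in F1 GCs relative to Ov GDR, on each array (circle without suffix, triangle array A), with the mean of the 2 arrays of a group as a black line and the background of each array dotted. The genes were chosen by this comparison, so that both F1 GCs arrays lying above both Ov GDR arrays is no separate result. The F1 GDR arrays range from near the Ov GDR level (COL4A3) to above the F1 GCs level (NID1).

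Fibronectin, the adhesive glycoprotein that integrins bind, had log2 values of 12.20 and 12.35 in F1 GCs, against 3.88 and 4.67 in Ov GDR and 11.30 and 10.71 in F1 GDR. Both Ov GDR arrays were low and only somewhat above their background, and no group overlapped another. FN1 was 256-fold higher in F1 GCs relative to Ov GDR (log2 difference 8.0, SE 0.36, adjusted p = 0.00268), the largest difference among the 72 genes. It fell by 6.73 on the log2 scale in Ov GDR against F1 GDR (SE 0.36, adjusted p = 0.00945), whereas the difference of 1.27 between F1 GCs and F1 GDR was not called (SE 0.36, adjusted p = 0.148). A further FN1 probe set gave 12.16 and 12.30 in F1 GCs, compared with 4.01 and 4.05 in Ov GDR and 11.17 and 10.66 in F1 GDR. Its difference between F1 GCs and Ov GDR was 8.20 (SE 0.23, adjusted p = 0.00257).

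SPARC, a collagen binding glycoprotein of basement membranes, had values of 12.55 and 12.56 in F1 GCs, against 8.24 and 8.0 in Ov GDR and 12.25 and 12.52 in F1 GDR. Unlike fibronectin it stayed far above background in Ov GDR, and its F1 GDR arrays came within 0.4 of those of F1 GCs. The log2 difference between F1 GCs and Ov GDR was 4.43 (SE 0.13, adjusted p = 0.00268), or 21.6-fold, and that between Ov GDR and F1 GDR was -4.27 (SE 0.13, adjusted p = 0.00572). Between F1 GCs and F1 GDR it was 0.16 (SE 0.13, adjusted p = 0.687).

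The nidogens, which bridge laminin and collagen IV, differed from each other in where they were highest. NID1 had 6.40 and 6.33 in F1 GCs, compared with 3.96 and 4.05 in Ov GDR and 8.21 and 8.25 in F1 GDR. It was the only one of the 72 genes that was called in all 3 comparisons, and F1 GDR was its highest group. It was 5.15-fold higher in F1 GCs relative to Ov GDR (log2 difference 2.36, SE 0.26, adjusted p = 0.00895) and 3.63-fold lower in F1 GCs relative to F1 GDR (-1.86, SE 0.26, adjusted p = 0.0353). In Ov GDR it fell by 4.22 against F1 GDR (SE 0.26, adjusted p = 0.0115).

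NID2 had 7.09 and 7.66 in F1 GCs, against 4.19 and 2.93 in Ov GDR and 5.43 and 4.19 in F1 GDR. Its Ov GDR and F1 GDR arrays met at 4.19, while both F1 GCs arrays stood above all others. With 1 of 2 Ov GDR arrays above background, it rose at least 13.7-fold in F1 GCs relative to Ov GDR (fitted log2 difference 3.82, SE 0.65, adjusted p = 0.0265). Against F1 GDR the difference was 2.56 (SE 0.65, adjusted p = 0.117), which was not called.

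Of the 8 chains of basement membrane collagens, namely COL4A1 to COL4A6, COL15A1 and COL18A1, 4 were higher in F1 GCs relative to Ov GDR (50%, against 12.2% of all genes) and none was called lower. In RefSeq the genes COL4A3 and COL4A4 are neighbours, as are COL4A5 and COL4A6, and COL4A1 and COL4A2. The 4 called chains were the members of the first 2 of these pairs. In mammals the chains COL4A3, COL4A4 and COL4A5 join into a common trimer, and COL4A5 also joins COL4A6.

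COL4A4 had 11.04 and 11.27 in F1 GCs, compared with 3.23 and 3.85 in Ov GDR and 10.50 and 9.22 in F1 GDR. An Ov GDR array was at background and the other little above it, whereas all F1 arrays were bright. The fitted log2 difference between F1 GCs and Ov GDR was 7.62 (SE 0.51, adjusted p = 0.00374), or at least 194-fold, and that between Ov GDR and F1 GDR was -6.32 (SE 0.51, adjusted p = 0.0187). Its neighbour COL4A3 had 5.89 and 6.64 in F1 GCs, against 2.03 and 3.22 in Ov GDR and 3.23 and 3.17 in F1 GDR. Here F1 GDR was as low as Ov GDR, with which it overlapped, and only F1 GCs stood apart. With 1 of 2 Ov GDR arrays above background, COL4A3 rose at least 8.08-fold in F1 GCs relative to Ov GDR (fitted log2 difference 3.64, SE 0.48, adjusted p = 0.0145) and was 8.36-fold higher there than in F1 GDR (3.06, SE 0.48, adjusted p = 0.0439).

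COL4A5 had 9.45 and 9.35 in F1 GCs, compared with 7.37 and 7.12 in Ov GDR and 8.87 and 8.68 in F1 GDR. It was thus well above background in every group, with no overlap between groups. It was 4.45-fold higher in F1 GCs relative to Ov GDR (log2 difference 2.15, SE 0.22, adjusted p = 0.00763), and the difference of -1.53 between Ov GDR and F1 GDR had an adjusted p of 0.0552. COL4A6 had 5.23 and 5.87 in F1 GCs, against 2.26 and 2.55 in Ov GDR and 3.30 and 3.51 in F1 GDR. Both Ov GDR arrays were at background, so that COL4A6 rose at least 5.29-fold in F1 GCs relative to Ov GDR (fitted log2 difference 3.14, SE 0.27, adjusted p = 0.00578). Against F1 GDR it was 4.41-fold higher in F1 GCs (2.14, SE 0.27, adjusted p = 0.0317).

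The other basement membrane collagens were dim. COL4A1 and COL15A1 were at background in all groups, and COL4A2, whose product usually pairs with that of COL4A1, read 3.16 and 3.17 in F1 GCs, compared with 3.26 and 3.57 in Ov GDR and 3.17 and 3.21 in F1 GDR. COL18A1, a basement membrane collagen that carries heparan sulfate chains, read 4.09 and 3.90 in F1 GCs, against 3.24 and 2.98 in Ov GDR and 3.50 and 3.05 in F1 GDR. Its difference of 0.88 between F1 GCs and Ov GDR was not called (SE 0.21, adjusted p = 0.0605).

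Among the 9 fibrillar collagen chains measured, 2 were higher in F1 GCs relative to Ov GDR (22.2%, against 12.2% of all genes). Of the others 1 was lower (11.1%, against 10.1% of all genes) and 6 were not called, COL3A1 among them. COL3A1 probe sets differed by up to 2.95 between F1 GCs and Ov GDR and up to 2.90 between F1 GCs and F1 GDR, with none called. COL1A2, a chain of the main fibrillar collagen of connective tissue, had 5.26 and 5.07 in F1 GCs, compared with 2.91 and 2.32 in Ov GDR and 5.31 and 6.63 in F1 GDR. The F1 GDR arrays were the higher ones and Ov GDR was at background. COL1A2 rose at least 4.06-fold in F1 GCs relative to Ov GDR (fitted log2 difference 2.55, SE 0.51, adjusted p = 0.0399), and the difference between Ov GDR and F1 GDR was -3.36 (SE 0.51, adjusted p = 0.0646). Its partner chain COL1A1 was dim, with 3.31 and 3.98 in F1 GCs, against 2.69 and 2.50 in Ov GDR and 2.48 and 2.49 in F1 GDR. The COL1A1 difference of 1.05 between F1 GCs and Ov GDR had an adjusted p of 0.0529 (SE 0.24), and that of 1.16 between F1 GCs and F1 GDR one of 0.0729 (SE 0.24).

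COL24A1, a fibrillar collagen chain that the rule for named genes does not cover and that is given because it was called, had 6.09 and 6.77 in F1 GCs, compared with 3.19 and 2.88 in Ov GDR and 5.30 and 5.40 in F1 GDR. Ov GDR was at background and F1 GDR lay below both F1 GCs arrays. The gene rose at least 9.77-fold in F1 GCs relative to Ov GDR (fitted log2 difference 3.40, SE 0.32, adjusted p = 0.0069). COL2A1, the cartilage collagen, was the fibrillar chain called lower, with 2.81 and 2.88 in F1 GCs, against 3.56 and 3.49 in Ov GDR and 3.34 and 3.19 in F1 GDR. All of these values lay within 0.6 of the array's background.

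Few of the remaining collagens were called. Of the 10 network, beaded filament and anchoring collagens 1 was called, COL10A1 of growth plate cartilage, lower in F1 GCs relative to Ov GDR (10%, against 10.1% of all genes). COL10A1 read 2.91 and 2.95 in F1 GCs, compared with 3.46 and 3.55 in Ov GDR and 2.95 and 3.05 in F1 GDR (difference between F1 GCs and Ov GDR -0.57, SE 0.10, adjusted p = 0.0262). These values lay near the array backgrounds, which were 2.76 and 2.78 in F1 GCs, against 3.27 and 3.01 in Ov GDR. Among the chains of collagen VI, which forms beaded filaments around cells, COL6A1, COL6A2 and COL6A6 were at background in all groups, and COL6A3 exceeded it on a single array of F1 GCs, at 2.88. None of the 10 fibril associated collagens and none of the 4 transmembrane collagens was called by limma in any comparison of the deposited values. Of the 13009 genes 22.2% were called in either direction between F1 GCs and Ov GDR. The shares were 7.68% between F1 GCs and F1 GDR and 3.25% between Ov GDR and F1 GDR. Lists of 10 and 4 are too short to set 0 calls against these shares. With equal means of ACTB, GAPDH and EEF1A1, COL14A1, COL16A1 and COL25A1 were called lower in F1 GCs relative to Ov GDR (14.8% of all genes were). At an unadjusted p under 0.05, 3 of the 10 fibril associated collagens passed between F1 GCs and Ov GDR and 0 of the 4 transmembrane ones. The share of all genes was not taken at this threshold.

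Of the 11 laminin chains measured, LAMA2 and LAMB2 were higher in F1 GCs relative to Ov GDR (18.2%, against 12.2% of all genes) and none was called lower. LAMA2, the alpha chain known from muscle and nerve basement membranes, had 8.17 and 8.59 in F1 GCs, against 4.14 and 2.82 in Ov GDR and 5.01 and 5.04 in F1 GDR. F1 GDR lay nearer to Ov GDR than to F1 GCs. An Ov GDR array was below its background, and LAMA2 rose at least 27.9-fold in F1 GCs relative to Ov GDR (fitted log2 difference 4.90, SE 0.51, adjusted p = 0.00829) and was 10.2-fold higher there than in F1 GDR (3.35, SE 0.51, adjusted p = 0.0416).

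LAMB2, a beta chain, had 4.48 and 4.70 in F1 GCs, compared with 3.29 and 2.55 in Ov GDR and 4.43 and 4.30 in F1 GDR. With 1 of 2 Ov GDR arrays barely above background, it rose at least 2.71-fold in F1 GCs relative to Ov GDR (fitted log2 difference 1.67, SE 0.29, adjusted p = 0.0287), and F1 GDR lay within 0.5 of F1 GCs. The gamma chain LAMC1, which most laminins share, ran the other way, with 10.79 and 10.55 in F1 GCs, against 11.23 and 11.95 in Ov GDR and 11.57 and 11.38 in F1 GDR. It was bright in every group, and both F1 GCs arrays lay below the others, but the differences of -0.92 from Ov GDR (SE 0.26, adjusted p = 0.0851) and -0.80 from F1 GDR (SE 0.26, adjusted p = 0.204) were not called. A further LAMC1 probe set read 7.73 and 7.86 in F1 GCs, compared with 9.37 and 9.87 in Ov GDR and 10.0 and 9.64 in F1 GDR. That probe set was called lower in F1 GCs, with a difference of -1.83 from Ov GDR (SE 0.26, adjusted p = 0.0164) and of -2.03 from F1 GDR (SE 0.26, adjusted p = 0.0315).

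The other laminin chains were dim. By their brightest probe sets LAMA1 and LAMB3 were at background in all groups. Of 5 LAMA1 probe sets 1 was above background in some group, and none was called. LAMA3, LAMA4, LAMA5, LAMB1, LAMB4 and LAMC3 exceeded background in some group but stayed under 3.6 on every array, and none of them was called.

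Of the 16 integrin chains 11 were above background in some group. Among the collagen binding alpha chains, ITGA2 had 9.12 and 9.12 in F1 GCs, against 3.49 and 2.78 in Ov GDR and 7.23 and 6.65 in F1 GDR. The 3 groups were apart, with 1 of 2 Ov GDR arrays above background. ITGA2 rose at least 58.3-fold in F1 GCs relative to Ov GDR (fitted log2 difference 5.98, SE 0.39, adjusted p = 0.00358) and fell by 3.80 in Ov GDR against F1 GDR (SE 0.39, adjusted p = 0.0299). The difference of 2.18 between F1 GCs and F1 GDR had an adjusted p of 0.0557 (SE 0.39). ITGA11 was called lower, at 3.11 and 3.08 in F1 GCs, compared with 3.80 and 3.71 in Ov GDR and 3.21 and 3.32 in F1 GDR (difference between F1 GCs and Ov GDR -0.66, SE 0.11, adjusted p = 0.0275). It was dim, with array backgrounds of 2.76 and 2.78 in F1 GCs, against 3.27 and 3.01 in Ov GDR. ITGA1 exceeded background on a single F1 GCs array, at 2.79.

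ITGAV and ITGB5, an alpha and a beta chain that pair as a vitronectin receptor, were both higher in F1 GCs relative to Ov GDR. ITGAV had 5.08 and 5.36 in F1 GCs, against 2.80 and 2.78 in Ov GDR and 3.22 and 3.16 in F1 GDR. Only F1 GCs were clearly above background. ITGAV rose at least 4.21-fold in F1 GCs relative to Ov GDR (fitted log2 difference 2.43, SE 0.16, adjusted p = 0.00351) and was 4.08-fold higher there than in F1 GDR (2.03, SE 0.16, adjusted p = 0.0219).

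ITGB5 had 6.61 and 6.75 in F1 GCs, compared with 2.41 and 2.27 in Ov GDR and 5.65 and 4.12 in F1 GDR. Its F1 GDR arrays were far apart and lay between the other groups. ITGB5 rose at least 11.6-fold in F1 GCs relative to Ov GDR (fitted log2 difference 4.34, SE 0.54, adjusted p = 0.0124), while the difference of 1.79 from F1 GDR was not called (SE 0.54, adjusted p = 0.172). The other chains of fibronectin and vitronectin receptors that were measured, ITGA8, ITGB3 and ITGB6, were at or near background and not called by their brightest probe sets. The other ITGB6 probe set, at background in all groups, was called lower in F1 GCs relative to Ov GDR (-0.08).

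ITGB1, the beta chain that most of these alpha chains need, had 9.35 and 9.45 in F1 GCs, against 7.94 and 8.76 in Ov GDR and 9.07 and 9.16 in F1 GDR. It was bright in every group and its difference of 1.044 between F1 GCs and Ov GDR was not called (SE 0.32, adjusted p = 0.0959). Among the chains of laminin receptors, ITGA6 read 5.89 and 4.09 in F1 GCs, compared with 6.80 and 8.32 in Ov GDR and 7.06 and 6.94 in F1 GDR. Both F1 GCs arrays were lower than the other 4, but they were far apart and the difference of -2.57 from Ov GDR was not called (SE 0.81, adjusted p = 0.104). ITGA3 and ITGA7, the other laminin receptor alpha chains, and ITGA4, which binds fibronectin on leukocytes, were below 4.2 on all arrays and not called. ITGB2, the beta chain of leukocyte integrins, was at background in all groups.

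**Figure D2:**
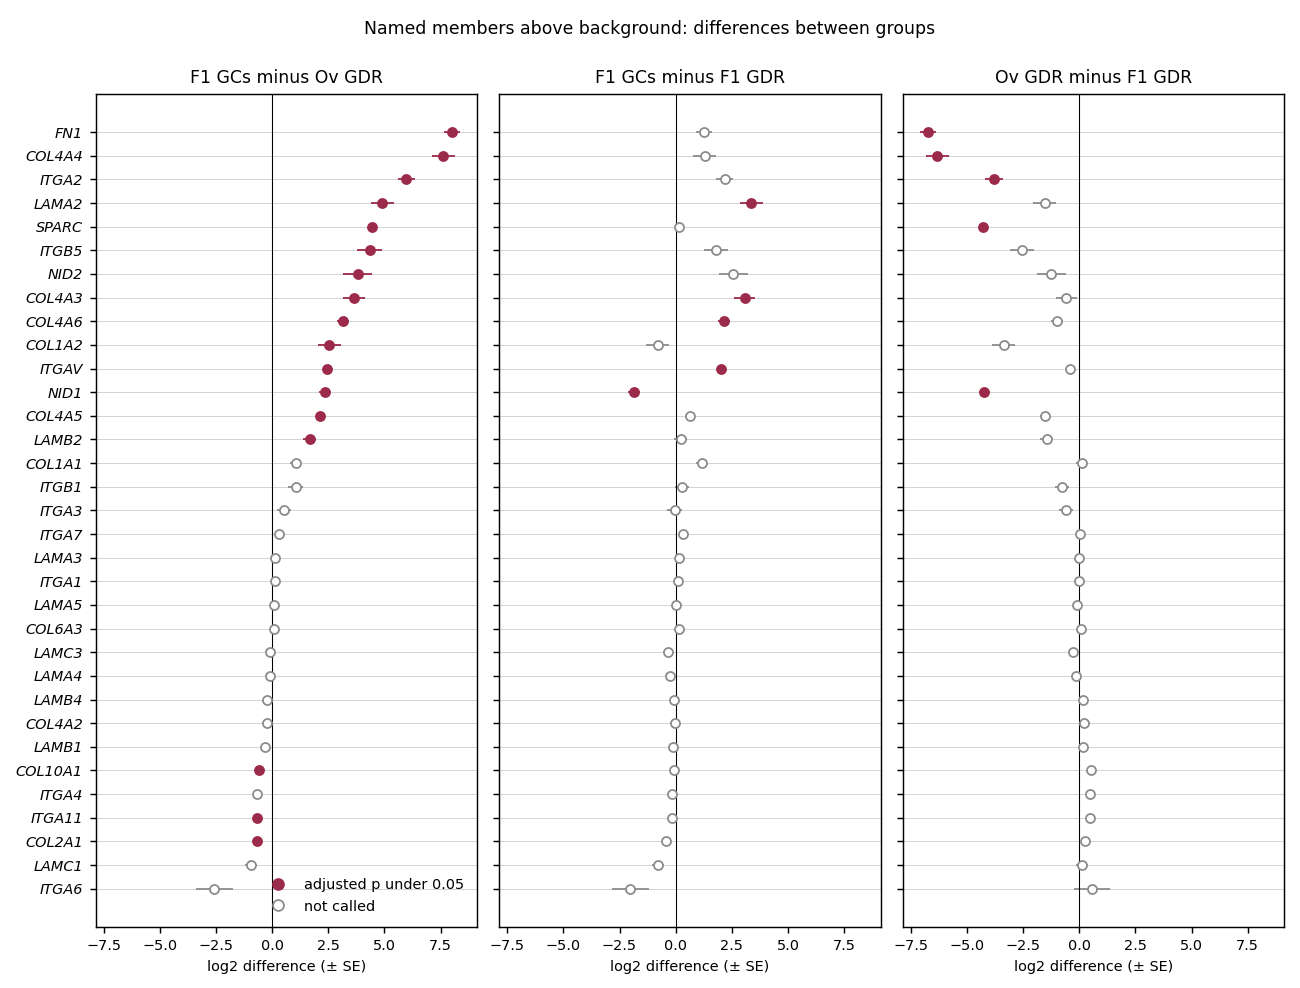
Log2 difference (± SE) between groups, from limma, of the 33 genes that the rule for named genes takes and that were above background in some group, with filled points for an adjusted p under 0.05. FN1, COL4A4, ITGA2 and SPARC are called in both of the comparisons with Ov GDR, whereas LAMA2, COL4A3, COL4A6 and ITGAV are called in both of the comparisons with F1 GCs, and NID1 in all 3.

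The comparison of F1 GCs with F1 GDR sets granulosa cells from beside the disc against the disc with its own overlying cells. Of the 72 genes COL4A3, COL4A6, ITGAV and LAMA2 were called higher in F1 GCs and NID1 was called lower. Over the 13009 genes 3.34% were called higher and 4.34% lower, so that 4 of 72 (5.56%) and 1 of 72 (1.39%) were not far from these shares. In each of the 4 higher genes both F1 GCs arrays were above the other 4 arrays. These genes were chosen by calls from the same arrays, and no share of all genes with such a separation was taken. At an unadjusted p under 0.05 12 genes were higher and 4 lower, a threshold at which no share of the 13009 genes was taken. None of these 5 calls was kept without the F1 GCs array A or without either F1 GDR array, and 1 of the 4 higher ones was kept without the other F1 GCs array.

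The comparison of Ov GDR with F1 GDR follows the germinal disc region over ovulation, with the loss of its granulosa cells. COL4A4, FN1, ITGA2, NID1 and SPARC were lower in Ov GDR (5 of 72, 6.94%, against 3.05% of the 13009 genes). By their brightest probe sets 0 genes were called higher in Ov GDR with limma (against 0.2% of the 13009 genes). A dimmer COL26A1 probe set was called higher in Ov GDR, where the 4 COL26A1 probe sets differed by 0.02 to 0.30. Of these 4, 1 was called lower in F1 GCs relative to Ov GDR. By their brightest probe sets 8 genes had an unadjusted p under 0.05 in the direction of higher in Ov GDR. No share of the 13009 genes was taken at the unadjusted threshold, so the 8 genes cannot be set against it. A plain t-test gave 0 in either direction, the 5 lower genes included. With equal means of ACTB, GAPDH and EEF1A1, COL25A1 was called higher and 7 genes lower, the 5 among them, and the shares of the 13009 genes were 2.84% higher and 3.69% lower. COL25A1 exceeded background on 1 array only, the Ov GDR array without suffix, which that scaling mainly moved. Its deposited values were 4.81 and 2.73 in Ov GDR, against 2.66 and 2.69 in F1 GDR. All 5 lower genes were also higher in F1 GCs relative to Ov GDR, a comparison that uses the same Ov GDR arrays. All 5 calls were lost without either F1 GDR array or either F1 GCs array, and were kept without either Ov GDR array. Without either Ov GDR array more genes were called in both directions, and the shares of the 13009 genes in those fits were not taken. The difference between Ov GDR and F1 GDR does not use the F1 GCs arrays, so that leaving them out altered only the shared estimate of variance behind the test.

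The 14 genes called higher in F1 GCs relative to Ov GDR by at least 2 on the log2 scale were placed on a linear scale, where 0 is the mean of Ov GDR and 1 the mean of F1 GCs. F1 GDR lay at a median of 0.350 (quartiles 0.117 and 0.523), beside a median of 0.222 (quartiles 0.0864 and 0.394) over all 2374 probe sets with such a difference. The median of the 14 genes was 0.212 without the F1 GDR array that has no suffix, and 0.659 when positions were taken on the log2 scale. The genes were thus spread over the whole range. At the low end COL4A3 lay at 0.0341, LAMA2 at 0.0623, ITGAV at 0.0725, NID2 at 0.114 and COL4A6 at 0.124. In the middle ITGA2 lay at 0.212, ITGB5 at 0.295, COL24A1 at 0.405, FN1 at 0.421, COL4A4 at 0.444 and COL4A5 at 0.549. SPARC lay at 0.891, close to F1 GCs, and COL1A2 at 2.12 and NID1 at 4.27 lay beyond them. For COL1A2 the F1 GDR arrays were far apart, at 1.13 and 3.12, whereas for NID1 they lay at 4.20 and 4.34. The neighbours COL4A3 and COL4A4 held different places, with 0.0368 and 0.0315 on the F1 GDR arrays for COL4A3 against 0.632 and 0.256 for COL4A4. These positions were not tested, and they share the arrays of all 3 groups.

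**Figure D3:**
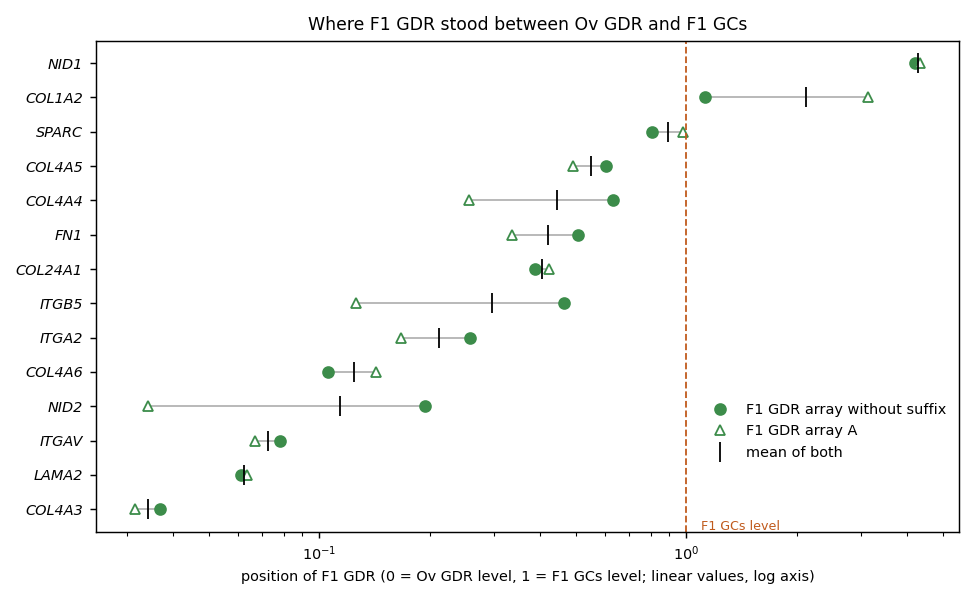
Position of F1 GDR between Ov GDR (0) and F1 GCs (1, dashed line) for 14 genes, from linear values and drawn on a log axis, for each F1 GDR array and as their mean. COL4A3, LAMA2 and ITGAV lie under 0.1 on both arrays, while NID1 lies above 4 on both.

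Of the 72 genes 52 had more than 1 probe set, at most 8, and 108 of the 195 probe sets were above background in some group. For FN1, SPARC and COL24A1 all called probe sets had the same direction. For FN1 4 of 8 probe sets were called higher in F1 GCs relative to Ov GDR, by 5.15 to 8.20, and the other 4 were at or near background. For SPARC all 3 were called, by 4.43 to 6.24, and for COL24A1 both were, by 2.51 and 3.40. Between Ov GDR and F1 GDR 2 of 8 FN1 probe sets were called lower, with differences over the 8 from -6.88 to 0.50. For SPARC 1 of 3 was called lower there, with differences over the 3 from -5.35 to -4.27. The dimmer COL24A1 probe set was also called higher in F1 GCs relative to F1 GDR (1.16, SE 0.18, adjusted p = 0.0411) and lower in Ov GDR relative to F1 GDR (-1.36, SE 0.18, adjusted p = 0.0454).

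In 2 genes probe sets were called in opposite directions between F1 GCs and Ov GDR. For COL1A2 2 of 8 were higher, by 2.55 and 2.69, and 1 was lower, at -0.41 (SE 0.08, adjusted p = 0.038), with values of 2.96 and 2.95 in F1 GCs, against 3.38 and 3.36 in Ov GDR and 3.0 and 2.98 in F1 GDR. For LAMA2 1 of 5 was higher, by 4.90, and 1 was lower, at -0.88 (SE 0.14, adjusted p = 0.0243), with 3.34 and 3.31 in F1 GCs, compared with 4.27 and 4.13 in Ov GDR and 3.54 and 3.70 in F1 GDR. Both of the lower probe sets were dim. The second COL1A2 probe set called higher was also called lower in Ov GDR relative to F1 GDR (-2.79, SE 0.31, adjusted p = 0.0347). For COL4A5 1 of 4 probe sets, all above background in some group, was called higher in F1 GCs relative to Ov GDR, with differences from -0.36 to 2.15. A dimmer COL4A5 probe set differed between the Ov GDR arrays, which read 3.13 and 7.66, and was not called. For COL4A3 1 of 3 probe sets, all above background in some group, was called higher in F1 GCs relative to Ov GDR, with differences from -0.84 to 3.64. Against F1 GDR 2 of the 3 were called higher. For NID1 1 of 4 probe sets was called in each comparison, with 3 above background. The NID1 differences between F1 GCs and Ov GDR ran from -0.12 to 2.36.

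**Figure D4:**
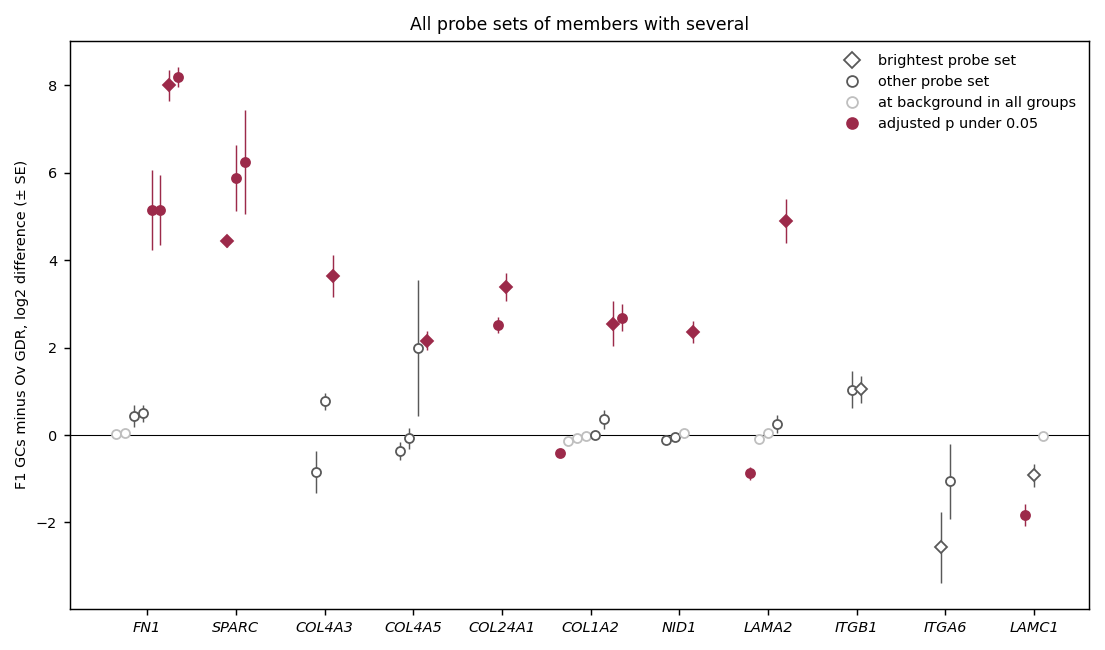
Log2 difference between F1 GCs and Ov GDR (± SE) for every probe set of 11 genes that have several, with diamonds for the brightest probe set of a gene, pale circles for probe sets at background in all groups and filled symbols for an adjusted p under 0.05. The called probe sets of FN1, SPARC and COL24A1 all lie above 0, while COL1A2 and LAMA2 each have called probe sets on both sides of 0.

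Genes that modify, fold and export collagens were also measured, as 22 of a list of 27. Of these 7 genes were higher in F1 GCs relative to Ov GDR (31.8%, against 12.2% of all genes) and 1 was lower (4.55%, against 10.1% of all genes). LOXL1, an enzyme of the lysyl oxidase family that prepares matrix fibres for crosslinking, had 9.25 and 9.81 in F1 GCs, against 2.51 and 2.77 in Ov GDR and 6.97 and 6.34 in F1 GDR. It rose at least 83.7-fold in F1 GCs relative to Ov GDR (fitted log2 difference 6.89, SE 0.38, adjusted p = 0.00304). CRTAP, a part of the complex that hydroxylates prolines of procollagen, had 9.25 and 9.0 in F1 GCs, compared with 3.30 and 3.42 in Ov GDR and 7.39 and 7.73 in F1 GDR (difference between F1 GCs and Ov GDR 5.77, SE 0.29, adjusted p = 0.00271). P4HB, the beta subunit of prolyl 4-hydroxylase and a protein disulfide isomerase, was also higher in F1 GCs relative to Ov GDR (4.90, SE 0.36, adjusted p = 0.00431), as were PLOD1, P3H1, SERPINH1 and SEC23A. The lower gene was TLL1, a protease related to that which trims procollagen, with 2.75 and 2.41 in F1 GCs, against 6.33 and 7.17 in Ov GDR and 5.03 and 4.96 in F1 GDR. CRTAP, LOXL1, P4HB and PLOD1 were called lower in Ov GDR relative to F1 GDR (18.2%, against 3.05% of all genes). Between F1 GCs and F1 GDR LOXL1 (2.88, SE 0.38, adjusted p = 0.0336) and SEC23A were higher, and TLL1 (-2.42, SE 0.36, adjusted p = 0.0396) and COLGALT1, which adds galactose to collagen (-2.12, SE 0.29, adjusted p = 0.0355), were lower. These were 9.09% of the list in each direction, against 3.34% of all genes higher and 4.34% lower.

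Other basement membrane and matricellular genes were measured as 39 of a list of 43, and 5 of them (12.8%) were higher in F1 GCs relative to Ov GDR, a share near that of all genes. They were SGCB, a sarcoglycan (4.56, SE 0.27, adjusted p = 0.00324), the connective tissue growth factor CCN2 (4.21, SE 0.21, adjusted p = 0.00271), TGFBI (3.34, SE 0.39, adjusted p = 0.011), THBS4 and DDR1. CCN2 was also lower in Ov GDR relative to F1 GDR (-4.15, SE 0.21, adjusted p = 0.00902), with 11.15 and 10.98 in F1 GCs, compared with 6.88 and 6.83 in Ov GDR and 11.25 and 10.75 in F1 GDR. Of 23 proteoglycan and hyaluronan genes 3 (13.04%, against 12.2% of all genes) were higher in F1 GCs relative to Ov GDR. They were the collagen binding proteoglycan FMOD (5.13, SE 0.51, adjusted p = 0.00748), VCAN, the large proteoglycan versican (4.27, SE 0.27, adjusted p = 0.00344), and the syndecan SDC2 (3.03, SE 0.21, adjusted p = 0.00412). These 3 genes were also lower in Ov GDR relative to F1 GDR (13.04%, against 3.05% of all genes). ACAN, the cartilage proteoglycan, was called lower in F1 GCs relative to Ov GDR (4.35%, against 10.1% of all genes).

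Of 29 genes that link integrins to actin at focal adhesions 6 (20.7%, against 12.2% of all genes) were higher in F1 GCs relative to Ov GDR and 1 was lower (10.1% of all genes were). ACTN1, which crosslinks actin, had 10.04 and 9.94 in F1 GCs, against 4.12 and 3.88 in Ov GDR and 8.82 and 9.20 in F1 GDR, and was 63.9-fold higher in F1 GCs relative to Ov GDR (6.00, SE 0.27, adjusted p = 0.00271). LIMS2 (5.22, SE 0.42, adjusted p = 0.00502), the adapter BCAR1 (5.06, SE 0.53, adjusted p = 0.00839), VCL, LIMS1 and TLN2 were also higher. PTK2, the focal adhesion kinase, had 8.05 and 7.91 in F1 GCs, compared with 9.80 and 9.77 in Ov GDR and 10.05 and 10.25 in F1 GDR, and was lower in F1 GCs both against Ov GDR (-1.81, SE 0.16, adjusted p = 0.00618) and against F1 GDR (-2.17, SE 0.16, adjusted p = 0.0202).

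Markers of the other cell types that these samples could hold were measured as well. Of 7 oocyte markers 4 and 2 were above background in F1 GCs, against 4 and 5 in Ov GDR and 5 and 5 in F1 GDR, while DDX4 and BMP15 were at background in every group. Their summed level was 60.9 and 41.7 in F1 GCs, against 680 and 1043 in Ov GDR and 698 and 786 in F1 GDR. Theca and fibroblast markers, which cells of the stroma share, summed to 74.8 and 86.8 in F1 GCs, against 103 and 89.7 in Ov GDR and 78.5 and 92.7 in F1 GDR, with CYP17A1, LUM, PDGFRA and DES at background in all groups. PDGFRB was above background on all 6 arrays, at 3.92 and 3.71 in F1 GCs, against 5.28 and 5.01 in Ov GDR and 4.34 and 5.20 in F1 GDR. DCN, ACTA2, TAGLN, MYH11 and THY1 exceeded it on at least 1 array, with TAGLN at 4.19 and DCN at 3.23 on the F1 GCs array A. Endothelial markers summed to 56.1 and 70.0 in F1 GCs, compared with 72.5 and 67.6 in Ov GDR and 60.2 and 58.0 in F1 GDR, with CDH5 and VWF at background. PECAM1 and KDR were above background on all 6 arrays, and TEK, TIE1 and EMCN on at least 1. With limma 0 of the 10 theca and fibroblast markers and 0 of the 7 endothelial markers were called in any comparison. Of all genes 22.2% were called either way between F1 GCs and Ov GDR, 7.68% between F1 GCs and F1 GDR and 3.25% between Ov GDR and F1 GDR. Lists of 10 and 7 are too short to set 0 calls against these shares. At an unadjusted p under 0.05, for which no share of all genes was taken, 2 and 1 passed between F1 GCs and Ov GDR. Blood and leukocyte markers summed to 1000 and 637 in F1 GCs, against 56.5 and 47.1 in Ov GDR and 430 and 385 in F1 GDR. The sums of both F1 groups were mostly CD74, the only one called, at 9.89 and 9.21 in F1 GCs, against 2.45 and 2.33 in Ov GDR and 8.61 and 8.17 in F1 GDR. CSF1R was above background on all 6 arrays. HBA1 and HBAD exceeded it only on the F1 GDR array A, at 5.76 and 3.67. HBE, HBZ, PTPRC and CD3E were at background in all groups. Oviduct epithelium markers summed to 887 and 679 in F1 GCs, against 4442 and 7395 in Ov GDR and 3392 and 5227 in F1 GDR. The sums of both germinal disc groups were mostly EPCAM, which was lower in F1 GCs relative to Ov GDR (-6.52, SE 1.20, adjusted p = 0.0324). EPCAM read 7.64 and 4.14 in F1 GCs, against 12.01 and 12.82 in Ov GDR. In F1 GDR, taken before ovulation, it read 11.60 and 12.27. The study lists its probe set among those overexpressed in both germinal disc groups relative to F1 GCs. KRT7, OVAL and OVALX were at background in all groups. The 5 markers other than EPCAM ran the other way, at 687 and 662 in F1 GCs, against 324 and 176 in Ov GDR and 294 and 288 in F1 GDR, and TF was not called (1.61, SE 0.37, adjusted p = 0.0557).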

How the data were processed

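RNA of F1 GCs, Ov GDR and F1 GDR was measured on 2 arrays per group. The authors processed all arrays jointly by gcrma, which corrects for background by probe sequence and sets all arrays to a common distribution, and deposited log2 values per probe set, with those of the F1 GDR array A given to 2 decimals. A total loss or gain of RNA is therefore not seen. Which gcrma version they used is not given in the sources used here. These deposited log2 values were used without further scaling. They hold no counts, so that precision is limited by the number of arrays.

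The arrays hold 38535 probe sets, from which 96 Affymetrix controls were removed. Symbols came from the platform annotation, in which 27168 of the remaining probe sets carry 1 symbol, 177 several and 11094 none. Of the 72 genes 71 were matched to RefSeq genes (assembly GRCg7b) by Entrez ID with 0 symbols changed. RefSeq was used for names and for neighbouring genes.

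The comparisons used limma 3.58.1 (R 4.3.3), with 1 linear model over all 6 arrays, a mean-variance trend (1.66 prior and 3 residual degrees of freedom), two-sided tests and Benjamini-Hochberg adjustment over 38439 probe sets in each comparison. Adjusted p-values come from this fit unless an alternative or an array left out is named. A run on simulated data with the same spread in every group required only that the fit recovered set differences. It says nothing on the adjusted p-values, since the real groups differed in spread. With 2 arrays against 2 an exact permutation test cannot go below 0.333. Where 1 or both arrays of the lower group did not exceed background, these arrays were set to their background for the fold, which is written as at least.

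The genes and lists were chosen with earlier results of these data known. Named genes were, for each comparison and direction, the 8 called genes with the largest difference whose groups did not overlap, all laminins, the 4 glycoproteins, chains of collagens I, IV and VI, ITGB1, integrin alpha chains above background, genes with probe sets called both ways, and the 3 called genes with the largest difference of each other list. COL24A1 and the further probe sets and genes given beside these were chosen after their values were seen. Older symbols of a gene in the same list were counted once.

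The alternatives were arrays set to equal means of ACTB, GAPDH and EEF1A1, only probe sets whose mean reached 4 in some group, no trend, only the 4 arrays compared, a plain t-test, the suffix as a block, the most variable probe set of a gene, a minimum difference of 1, each array left out, a fixed background of 4 and positions on the log2 scale. The suffix A does not say which arrays belong together.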

Additional observations from a re-analysis of the deposited data

How the results depend on the processing

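The 15 genes higher in F1 GCs relative to Ov GDR were 2 with a plain t-test and 7 to 15 with an array left out, and the 3 lower ones were 5 with equal reporter gene means (0 of them among the 3), 5 without a trend, 1 with only the 4 arrays compared, 0 with the plain t-test, with the suffix as a replicate block or with a minimum difference of 1, and 0 to 14 with an array left out. The 4 genes higher in F1 GCs than in F1 GDR were 7 with equal reporter gene means, 7 with a group mean of at least 4, 0 with the plain t-test or the replicate block, and 0 to 5 with an array left out. The 1 lower gene became 2 with equal reporter gene means, the 4 arrays compared or the most variable probe set, 0 with the t-test or block, and 0 to 2 with an array left out. For Ov GDR against F1 GDR the 0 higher genes became 1 with equal reporter gene means and 0 to 6 with an array left out, and the 5 lower ones 9 with the group mean of at least 4, 0 with the 4 arrays compared or the t-test, 1 with the block, and 0 to 10 with an array left out. No named gene that was called turned its direction under any of these settings, and the causes of the lost calls were not tested.

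Deviations of arrays with the same suffix correlated at 0.168 (F1 GCs and Ov GDR), -0.145 (F1 GCs and F1 GDR) and -0.153 (Ov GDR and F1 GDR). These correlations cannot show whether arrays with the same suffix share hens or a day, which the labels do not say. With equal reporter gene means the median difference over all probe sets was -0.50 between F1 GCs and Ov GDR, 0.01 between F1 GCs and F1 GDR, and 0.51 between Ov GDR and F1 GDR, against -0.07, -0.01 and 0.05 in the deposited values. The share of all calls that were higher was then 42.7%, 55.1% and 54.0%, against 56.8%, 59.5% and 12.6%. The median position of F1 GDR was 0.659 on the log2 scale, against 0.350, and 0.212 to 0.426 with an array left out. It was 0.254 with the most variable probe set of a gene. With a fixed background of 4, 25 genes were above it in some group instead of 55.

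The number of arrays, 2 per group, limits the precision, most of all in Ov GDR, whose arrays spread most.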
